A study of Mus musculus with 11 samples.

Results

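The caspase-8 and necroptosis machinery was examined in fetal livers as 9 genes picked by name, Casp8, Fadd, Cflar, Ripk1, Ripk3, Ticam1, Zbp1, Mlkl and Adar, out of 52636 genes listed for each of 11 mouse livers. RNA sequencing was done on untreated livers at stage E15.5 from 4 genotypes: 3 wild-type (WT), 2 Tnfr1-/- (labelled TNFR1KO), 3 Casp8-/- Mlkl-/- (Casp8 MLKL dKO) and 3 Casp8-/- Tnfr1-/- (Casp8 TNFR1 dKO). All lines were kept on a C57BL/6N background, and every allele was a germline loss, so each cell of the embryo carried it. Casp8 and Mlkl were themselves deleted in some of these embryos, which leaves 7 genes that no genotype targeted.

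Caspase-8 is the protease that starts apoptosis below death receptors. It is recruited by the adaptor FADD, and it pairs with cFLIP (Cflar), a relative without protease activity. The caspase-8 and cFLIP pair also holds back necroptosis, a lytic death in which the kinase RIPK3 phosphorylates the pore-forming pseudokinase MLKL. RIPK3 is engaged through a short RHIM motif by RIPK1 below TNFR1, by TRIF (Ticam1) below TLR3 and TLR4, or by ZBP1, a sensor of left-handed double-stranded nucleic acids that is itself interferon inducible. ADAR edits adenosine in double-stranded RNA and limits the RNA that ZBP1 can bind.

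Of these genes, Zbp1, Adar and, where its own gene was intact, Mlkl were higher in Casp8-/- Tnfr1-/- livers than in every other genotype. Zbp1 averaged 31.4 CPM (counts scaled to library size) ± 4.32 (SD, n = 3) there, against 0.624 ± 0.210 (SD, n = 3) in WT. Adar averaged 222 ± 23.1 CPM against 62.6 ± 2.54 in WT. Mlkl averaged 17.5 ± 6.19 CPM against 4.32 ± 0.121 in WT. The other death-complex genes, Fadd, Cflar, Ripk1, Ripk3 and Ticam1, passed no test between genotypes at an adjusted p of 0.05. The adjusted p is from edgeR's quasi-likelihood test over 17243 genes.

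The libraries held between 23129212 and 35819339 counts in genes (median 25733946). Across genes, the log2 CPM of Casp8-/- Tnfr1-/- replicate 3 correlated with the other livers at r = 0.840 to 0.891, whereas any pair of the other 10 livers reached at least 0.949. This library also stood apart in composition. Its 10 striated muscle markers summed to 1751 CPM, against 20.9 to 46.2 in the other livers, and its granulocyte markers to 14529 CPM, against 5338 and 6592 in the 2 other livers of its genotype. Casp8-/- Mlkl-/- replicate 1 had hepatocyte markers at 208951 CPM, against 51735 to 101056 elsewhere. The erythroid markers of Casp8-/- Tnfr1-/- replicate 3 summed to 73615 CPM, against 23475 to 38214 in the other livers. Klf1, Epor and Gata1 of that list were nonetheless lowest in this liver, at 81.0, 82.6 and 96.5 CPM. Hepatocyte and erythroid markers were abundant in all 11 livers, as the tissue label implies. In bulk tissue, fewer cells of a type and less RNA per cell cannot be told apart.

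Zbp1, Adar and Mlkl are known as interferon-responsive genes, so the promoter windows were searched for the interferon-stimulated response element (GAAA, any 2 bases, GAAA) and the STAT element TTCNNNGAA on both strands. The windows run from 250 bases before to 50 bases after each annotated start (RefSeq, GRCm38.p6). Of the 9 genes, 8 had one, Zbp1 excepted. Capitals mark matches to these 2 elements or to 2 looser forms given below, GAAANNGAA and GAAANGAAA. The capitals in Casp8 and Ripk3 match a looser form only. Positions count the start base as 1 and the base before it as -1. Ifit1, a classic interferon-stimulated gene, is shown to let a reader compare a promoter with strong matches. The stretches are the 130 bases before the start for Ifit1, Mlkl and Casp8, and short sites around the start for Adar (the third annotated start), Ripk1 (the second), Ripk3 and Cflar.
Ifit1 (chr19:34640759-34640888, plus strand): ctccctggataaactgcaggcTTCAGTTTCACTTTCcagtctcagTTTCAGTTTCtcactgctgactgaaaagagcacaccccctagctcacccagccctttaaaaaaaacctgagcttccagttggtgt
Mlkl (chr8:111338206-111338335, minus strand): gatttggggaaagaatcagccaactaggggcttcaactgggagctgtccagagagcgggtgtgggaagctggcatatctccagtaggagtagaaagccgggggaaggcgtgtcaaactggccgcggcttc
Casp8 (chr1:58802372-58802501, plus strand): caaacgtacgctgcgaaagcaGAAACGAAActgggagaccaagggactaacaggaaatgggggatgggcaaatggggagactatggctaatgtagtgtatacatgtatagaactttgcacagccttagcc
Adar (chr3:89730738-89730762, plus strand): ttTTCAAGGAAACGAAAGTGAActc
Ripk1 (chr13:34002852-34002881, plus strand): gacttcaaacgTTCCCGGAAATCGAAAagc
Ripk3 (chr14:55788828-55788853, minus strand): cctcttatttGAAAGGGAAgttgtga
Cflar (chr1:58711491-58711514, plus strand): gtctgcTTTCGGTTTCtgggcgtc

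The interferon-stimulated response element was found in 2 of the 8 genes with a window, Cflar and Ripk1, and in 3.99% of all 27025 genes. It was found in 7 of the 9 listed interferon-stimulated genes that had a window. TTCNNNGAA was found in Adar and Ripk1 and in 9.55% of all genes. After the windows had been read, 2 looser forms were added: GAAANNGAA (Adar, Cflar, Ripk1, Ripk3; 9.76% of all genes) and GAAANGAAA (Adar and Casp8; 3.70% of all genes). At the third Adar start, TTCAAGGAA, GAAACGAAA and GAAAGTGAA overlap within bases 23 to 42. Mlkl, Fadd and Ticam1 held none of the 4 patterns in these windows, which says nothing about sites elsewhere. A match is a run of letters and does not show binding.

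**Figure D1:**
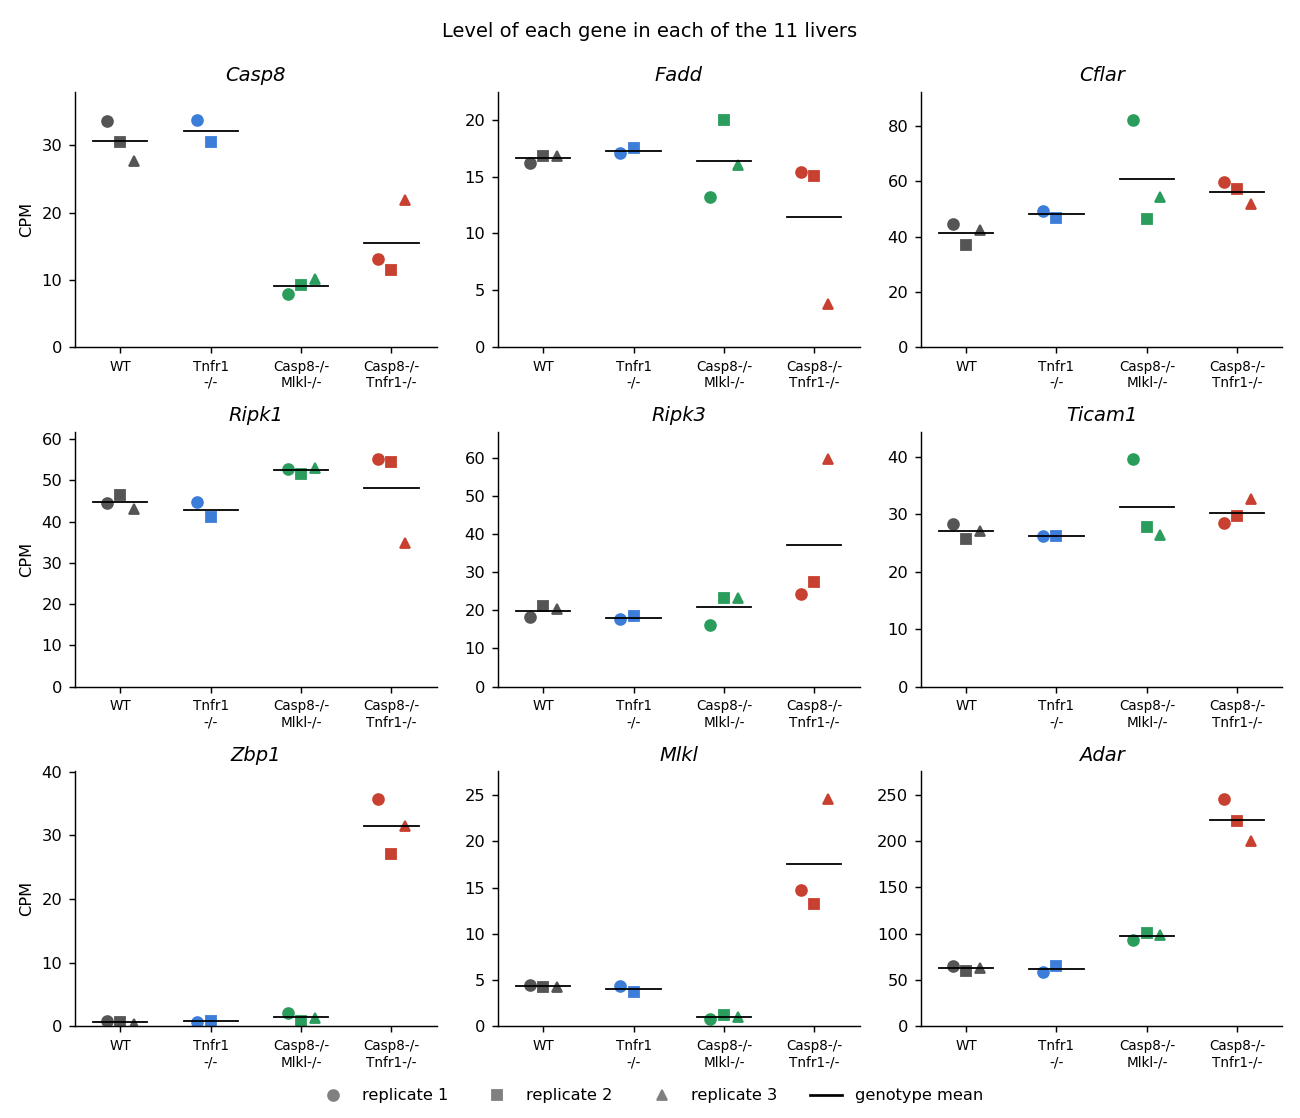
CPM (y axes, each from 0) of the 9 genes in each liver, by genotype; symbols give the replicate and black lines the genotype mean. Zbp1, Adar and Mlkl are high in all 3 Casp8-/- Tnfr1-/- livers, while replicate 3 of that genotype lies away from its pair for Fadd, Ripk1, Ripk3, Casp8 and Mlkl.

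The targeted genes were read first, as a check of the genotypes. Casp8 (chr1:58795374-58847503, plus strand, GRCm38) measured 33.6, 30.5 and 27.7 CPM in WT and 33.9 and 30.5 CPM in Tnfr1-/- livers. It measured 7.82, 9.21 and 10.2 CPM in Casp8-/- Mlkl-/- livers and 13.1, 11.5 and 21.9 CPM in Casp8-/- Tnfr1-/- livers. All 6 livers labelled as lacking Casp8 therefore lay below all 5 others (p = 0.00433, two-sided, by exact permutation of log2 CPM). Counts cover the whole gene, so reads from exons outside a deletion remain. Casp8 was lower in Casp8-/- Tnfr1-/- than in WT livers by a log2 fold change of -0.99 (95% interval -1.51 to -0.46, adjusted p = 0.0402), and by -1.31 without replicate 3 (adjusted p = 0.000887). With 1 liver left out at a time, 2 of 11 fits kept this call, and leaving out a WT liver gave an adjusted p of 0.114 to 0.150. Against WT, Casp8-/- Mlkl-/- livers gave a log2 fold change of -1.75 (95% interval -2.29 to -1.21, adjusted p = 0.0677). The log2 difference between the 2 Casp8-deleted genotypes was 0.77 (95% interval 0.24 to 1.29, adjusted p = 0.169), and 0.44 without replicate 3.

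Mlkl (chr8:111311797-111338177, minus strand) was the other targeted gene. It measured 0.730, 1.22 and 1.03 CPM in Casp8-/- Mlkl-/- livers, from 18, 42 and 27 counts. It measured 4.46, 4.23 and 4.26 CPM in WT and 4.38 and 3.68 CPM in Tnfr1-/- livers. In the Mlkl-/- line an internal exon is deleted, so the remaining reads can come from the rest of the gene. Tnfrsf1a, which encodes TNFR1, did not separate the genotypes: it measured 52.8, 53.4 and 47.1 CPM in WT and 49.8 and 50.5 CPM in Tnfr1-/- livers, so its whole-gene count gives no check of that allele. In Casp8-/- Tnfr1-/- livers it measured 76.9, 76.0 and 425 CPM, the last in replicate 3.

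The Mlkl transcript was higher in Casp8-/- Tnfr1-/- livers than in WT and Tnfr1-/- livers. No genotype lacked Casp8 with both Tnfr1 and Mlkl intact, so loss of Casp8 alone could not be read. Mlkl measured 14.7, 13.3 and 24.6 CPM in Casp8-/- Tnfr1-/- livers. All 3 lay above the 5 WT and Tnfr1-/- livers (exact permutation test, p = 0.0179, the smallest possible), a position shared by 15.7% of all genes. The log2 fold change of Mlkl was 2.02 against WT (95% interval 1.40 to 2.63, adjusted p = 0.00328). It was 2.12 against Tnfr1-/- (95% interval 1.40 to 2.83, adjusted p = 0.00963). Without replicate 3 these were 1.70 and 1.79 (adjusted p = 0.000724 and 0.00169). The call against Tnfr1-/- was lost when either Tnfr1-/- liver was left out (adjusted p = 0.153 and 0.186). The difference of 4.12 log2 units from Casp8-/- Mlkl-/- livers includes the deletion itself.

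Zbp1 (chr2:173206612-173218923, minus strand) showed the widest separation of the genotypes among the 9 genes. It was low in caspase-8-sufficient livers, with 0.807, 0.671 and 0.394 CPM in WT and 0.602 and 0.874 CPM in Tnfr1-/-, from 10 to 23 counts a library. Casp8-/- Mlkl-/- livers gave 2.07, 0.872 and 1.34 CPM, and Casp8-/- Tnfr1-/- livers gave 35.8, 27.1 and 31.4 CPM. The latter 3 lay above the other 8 livers (exact permutation test, p = 0.00606, the smallest possible), a position shared by 7.43% of all genes. The log2 fold change of Casp8-/- Tnfr1-/- livers was 5.64 against WT (95% interval 4.77 to 6.52, adjusted p = 6.43e-05). It was 5.42 against Tnfr1-/- (adjusted p = 0.000368) and 4.47 against Casp8-/- Mlkl-/- (95% interval 3.66 to 5.28, adjusted p = 0.000446). Leaving out any 1 liver kept the value against WT between 5.41 and 5.88. Between Casp8-/- Mlkl-/- and WT livers the log2 fold change was 1.17 (95% interval 0.37 to 1.98), which failed the correction (adjusted p = 0.865), and the ranges of the genotypes met, at 0.872 CPM in Casp8-/- Mlkl-/- and 0.874 CPM in Tnfr1-/-.

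Adar (chr3:89715022-89753446, plus strand) was graded between the genotypes. It measured 64.7, 59.8 and 63.3 CPM in WT and 59.0 and 65.4 CPM in Tnfr1-/- livers. It measured 93.2, 101 and 98.1 CPM in Casp8-/- Mlkl-/- and 246, 222 and 199.9 CPM in Casp8-/- Tnfr1-/- livers. All 3 Casp8-/- Mlkl-/- livers lay above the caspase-8-sufficient livers, a position shared by 5.61% of all genes. All 3 Casp8-/- Tnfr1-/- livers lay above the other 8, a position shared by 7.43%. The log2 fold change of Casp8-/- Tnfr1-/- livers was 1.83 against WT (95% interval 1.55 to 2.11, adjusted p = 6.43e-05). It was 1.84 against Tnfr1-/- (adjusted p = 0.000262) and 1.19 against Casp8-/- Mlkl-/- livers (95% interval 0.92 to 1.46, adjusted p = 0.00143). Without replicate 3 the value against WT was 1.91. Between Casp8-/- Mlkl-/- and WT livers the log2 fold change of 0.64 (95% interval 0.37 to 0.91) missed the threshold over all genes (adjusted p = 0.236), but passed it without Casp8-/- Tnfr1-/- replicate 3 in the fit (adjusted p = 0.029) and by DESeq2 (adjusted p = 3.61e-06). The nicotinic receptor gene Chrnb2 overlaps 16.8% of the exonic bases of Adar on the opposite strand. It had 21 to 55 counts a library, against at least 1426 for Adar.

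**Figure D2:**
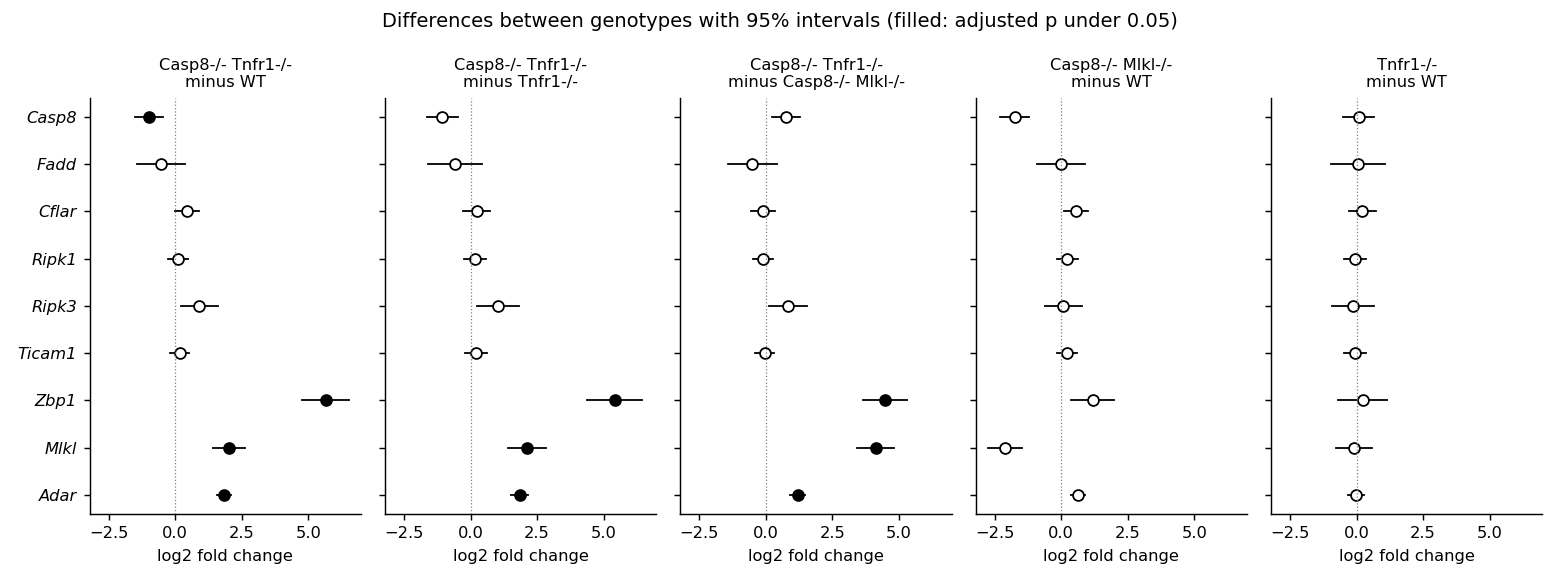
Log2 fold change (x axes) of each gene in 5 comparisons, with 95% intervals from the edgeR fit; filled points have an adjusted p under 0.05. Zbp1, Adar and Mlkl are filled in the 3 comparisons of Casp8-/- Tnfr1-/- livers, and no point is filled in the comparisons of Casp8-/- Mlkl-/- or Tnfr1-/- with WT.

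Counted over the 7 genes that no genotype targeted, 2 passed the test in Casp8-/- Tnfr1-/- against WT, Zbp1 and Adar, both higher. Over all genes tested, 5.8% passed, 5.1% being higher. The same 2 passed against Tnfr1-/-, where the share over all genes was 2.17% (2.05% higher), and against Casp8-/- Mlkl-/- livers, where it was 1.65% (1.54% higher). Without replicate 3, 3 of the 7 passed against WT, Ripk1 being added, as did 9.83% of all genes. These 3 comparisons share the Casp8-/- Tnfr1-/- livers. With limma-voom and quality weights, 5 of the 7 (Cflar, Ripk1, Ripk3, Zbp1 and Adar) passed against WT and against Tnfr1-/-, where 30.6% and 25.1% of all genes did. The median log2 fold change of the 7 was 0.45 against WT, beside -0.0015 over all genes. In Casp8-/- Mlkl-/- against WT, none of the 7 passed in edgeR, where 0.0058% of all genes did. An unadjusted p under 0.05 was found for 3 of them, Cflar, Zbp1 and Adar. DESeq2 called 1 (0.522% of all genes), limma-voom 0 and limma-voom with quality weights 2 (6.04% of all genes). In Tnfr1-/- against WT, 0 of the 7 passed by any of these tools, none had an unadjusted p under 0.05, and 0.0% of all genes passed in edgeR. Quality weights called 1.57% of all genes there. The log2 fold changes of the 9 genes in that comparison lay between -0.14 (Ripk3) and 0.23 (Zbp1).

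Ripk3 (chr14:55784995-55788865, minus strand), the kinase that activates MLKL, stood above the other genotypes mainly through 1 liver. It measured 18.2, 21.1 and 20.3 CPM in WT and 17.7 and 18.5 CPM in Tnfr1-/-. It measured 16.1, 23.3 and 23.2 CPM in Casp8-/- Mlkl-/- and 24.3, 27.5 and 59.6 CPM in Casp8-/- Tnfr1-/- livers. The 3 livers did not overlap the other 8 (exact permutation test, p = 0.00606), a position shared by 7.43% of all genes. Against WT it gave a log2 fold change of 0.90 (95% interval 0.20 to 1.60, adjusted p = 0.120), and 0.39 without replicate 3 (adjusted p = 0.190).

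Of the 7, 3 genes (Ripk3, Zbp1 and Adar) lay above the other 8 livers in all Casp8-/- Tnfr1-/- livers, as did 7.43% of all genes. Against the 5 caspase-8-sufficient livers alone, 5 of the 7 lay above (Cflar, Ripk3, Zbp1, Ticam1 and Adar), as did 15.7% of all genes, and Fadd lay below, as did 12.4%. In Casp8-/- Mlkl-/- livers 2 of the 7, Ripk1 and Adar, lay above the caspase-8-sufficient livers, as did 5.61% of all genes. Adar alone of the 7 lay above in all 6 Casp8-deleted livers, as did 3.47% of all genes.

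The adaptors, cFLIP and the receptor-proximal kinase were not called in any comparison by edgeR with all livers. Fadd (chr7:144577318-144582463, minus strand), which bridges receptors to caspase-8, measured 16.2, 16.8 and 16.8 CPM in WT, 17.1 and 17.5 CPM in Tnfr1-/- and 13.2, 20.02 and 16.0 CPM in Casp8-/- Mlkl-/- livers. In Casp8-/- Tnfr1-/- livers it measured 15.4, 15.1 and 3.82 CPM. Its difference from WT was -0.53 log2 units (95% interval -1.45 to 0.38), and -0.12 without replicate 3, the low liver. Cflar (chr1:58711508-58758884, plus strand) measured 44.6, 37.0 and 42.2 CPM in WT and 49.2 and 46.9 CPM in Tnfr1-/- livers. It measured 82.5, 46.4 and 54.3 CPM in Casp8-/- Mlkl-/- and 59.7, 57.4 and 51.9 CPM in Casp8-/- Tnfr1-/- livers. The log2 fold change of the last against WT was 0.45 (95% interval 0.00311 to 0.89, adjusted p = 0.201), and the highest liver was Casp8-/- Mlkl-/- replicate 1, the liver with high hepatocyte markers.

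Ripk1 (chr13:34002363-34037147, plus strand), the kinase below TNFR1, measured 44.6, 46.4 and 43.0 CPM in WT and 44.8 and 41.0 CPM in Tnfr1-/- livers. It measured 52.7, 51.5 and 53.1 CPM in Casp8-/- Mlkl-/- and 55.2, 54.4 and 34.9 CPM in Casp8-/- Tnfr1-/- livers. Of the 6 Casp8-deleted livers, 5 lay above the caspase-8-sufficient ones, and replicate 3 lay below them. The log2 fold change of Casp8-/- Tnfr1-/- livers against WT was 0.11 (95% interval -0.27 to 0.49, adjusted p = 0.692) with all livers and 0.30 without replicate 3 (adjusted p = 0.0446). Serpinb6a overlaps 2.89% of the Ripk1 exonic bases on the opposite strand and had 666 to 1108 counts. Ticam1 (chr17:56269319-56276786, minus strand), which encodes the TLR3 and TLR4 adaptor TRIF, measured 28.3, 25.7 and 27.1 CPM in WT and 26.2 and 26.1 CPM in Tnfr1-/- livers. It measured 39.6, 27.8 and 26.4 CPM in Casp8-/- Mlkl-/- and 28.4, 29.6 and 32.7 CPM in Casp8-/- Tnfr1-/- livers. Against WT the last gave a log2 fold change of 0.16 (95% interval -0.21 to 0.53, adjusted p = 0.547).

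Against Casp8-/- Mlkl-/- livers, the untargeted genes other than Zbp1 and Adar gave Casp8-/- Tnfr1-/- log2 differences of 0.83 for Ripk3 (95% interval 0.13 to 1.53), -0.52 for Fadd (-1.43 to 0.40), -0.12 for Cflar (-0.56 to 0.33), -0.12 for Ripk1 (-0.50 to 0.26) and -0.05 for Ticam1 (-0.42 to 0.32), none called. Without replicate 3 they were 0.31 for Ripk3, -0.10 for Fadd, 0.067 for Ripk1, -0.056 for Cflar and -0.10 for Ticam1. Against Tnfr1-/- livers Ripk3 gave 1.04, Fadd -0.59, Cflar 0.23, Ripk1 0.17 and Ticam1 0.21, none called, and without replicate 3 Ripk3 gave 0.52, Fadd -0.18 and Ripk1 0.35.

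The question of whether the response to Casp8 loss depended on the second deletion was put as a difference of differences, Casp8-/- Tnfr1-/- minus Tnfr1-/- against Casp8-/- Mlkl-/- minus WT. It compares 2 designs that differ in both Tnfr1 and Mlkl. It passed the test for Zbp1 at 4.24 log2 units (95% interval 3.02 to 5.47, adjusted p = 0.0206) and for Adar at 1.20 (95% interval 0.79 to 1.61, adjusted p = 0.0433), that is 2 of the 7 untargeted genes, beside 0.162% of all genes (0.151% positive). With 1 liver left out at a time, 5 of 11 fits kept the call of Zbp1 and 2 of 11 that of Adar. Mlkl gave 4.22 (95% interval 3.25 to 5.19, adjusted p = 0.00639), with the Mlkl deletion inside the contrast.

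**Figure D3:**
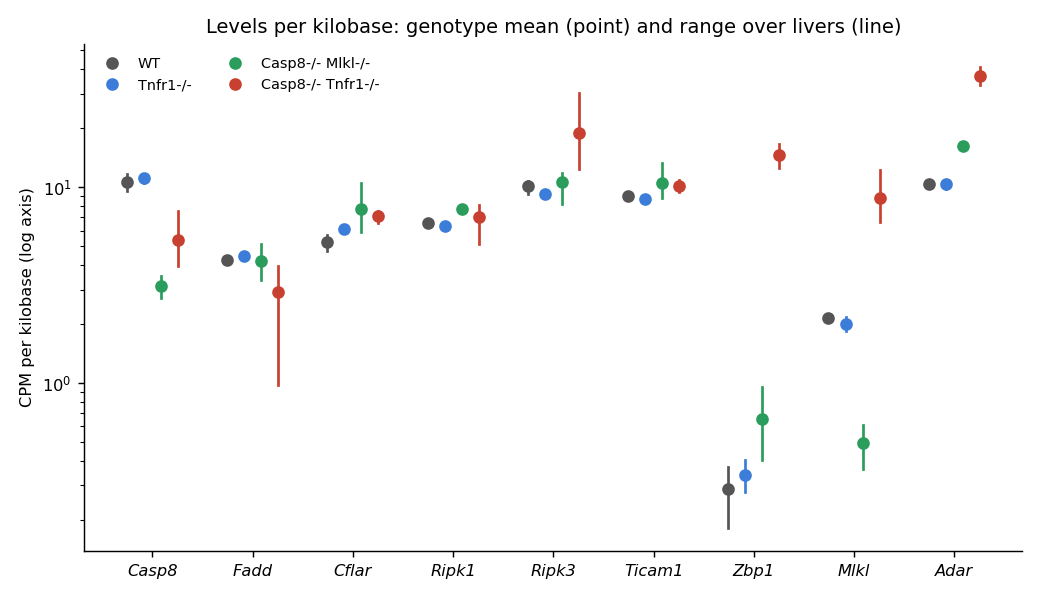
CPM per kilobase of the deposited exonic width (log y axis) for each gene. Points are genotype means and lines the range over 2 or 3 livers. Zbp1 is the lowest of the 9 genes in WT livers at 0.288 and lies between Ripk3 and Ticam1 in Casp8-/- Tnfr1-/- livers at 14.5.

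Per kilobase of the exonic width deposited with the counts, the levels of the 9 genes could be placed in order. GENCODE M21 gives the same width for Casp8, Fadd and Ticam1 and larger ones for the others. It gives 12669 against 7870 bases for Cflar, 3529 against 2164 for Zbp1 and 8118 against 6000 for Adar. The order between genes therefore holds for the deposited widths only. In WT livers Casp8 (10.6 ± 1.03, SD, n = 3), Adar (10.4 ± 0.424), Ripk3 (10.1 ± 0.770) and Ticam1 (9.03 ± 0.438) led, each overlapping the next in range over livers. Ripk1 (6.55), Cflar (5.25), Fadd (4.25), Mlkl (2.15) and Zbp1 (0.288 ± 0.0970) followed without overlap between neighbours. The sensor and the executioner were thus the scarcest transcripts of the set in WT. In Casp8-/- Tnfr1-/- livers the order became Adar (37.1 ± 3.85), Ripk3 (18.9 ± 9.95), Zbp1 (14.5 ± 1.99), Ticam1 (10.1), Mlkl (8.75 ± 3.09), Cflar (7.16), Ripk1 (7.07), Casp8 (5.35) and Fadd (2.93). Adar was set apart from Ripk3 and Zbp1 from Ticam1, while Ripk3 with Zbp1 and the run from Ticam1 to Casp8 overlapped. On the deposited RPKM scale Zbp1 (8.40 to 14.1) and Ticam1 (6.33 to 8.66) overlapped too, and Ripk1 ranked above Cflar. In Casp8-/- Mlkl-/- livers Adar led alone at 16.2 ± 0.647, and Zbp1 (0.659) and Mlkl (0.496) came last, overlapping each other.

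**Figure D4:**
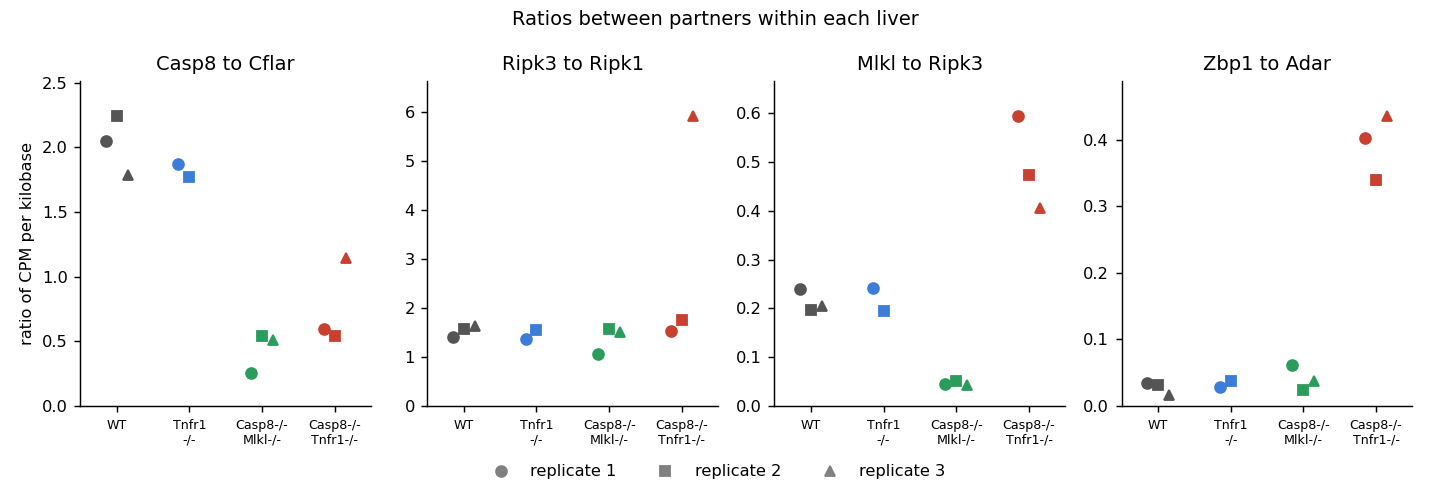
Ratio of CPM per kilobase between 4 pairs of genes (y axes from 0) within each liver, by genotype; symbols give the replicate. Zbp1 to Adar reaches 0.340 to 0.435 in Casp8-/- Tnfr1-/- livers and at most 0.0615 in the other livers.

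Ratios within a liver need no scaling between libraries. Zbp1 to Adar, per kilobase, ran from 0.0173 to 0.0346 in WT, 0.0283 to 0.0370 in Tnfr1-/-, 0.0240 to 0.0615 in Casp8-/- Mlkl-/- and 0.340 to 0.435 in Casp8-/- Tnfr1-/- livers. The Zbp1 transcript therefore stood higher against the Adar transcript in each Casp8-/- Tnfr1-/- liver, although both were higher. In WT and Tnfr1-/- livers this ratio rests on 10 to 23 Zbp1 counts. Mlkl to Ripk3, the effector against its kinase, ran from 0.196 to 0.242 in the 5 caspase-8-sufficient livers and from 0.405 to 0.594 in Casp8-/- Tnfr1-/- livers. Ripk3 to Ripk1 ran from 1.06 to 1.75 in 10 livers and was 5.92 in Casp8-/- Tnfr1-/- replicate 3. Casp8 to Cflar ran from 1.77 to 2.24 in caspase-8-sufficient livers, 0.258 to 0.540 in Casp8-/- Mlkl-/- and 0.543 to 1.15 in Casp8-/- Tnfr1-/- livers, which carries the Casp8 deletion.

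Among the 5 caspase-8-sufficient livers the coefficient of variation was 2.75% for Fadd, 3.89% for Ticam1, 4.65% for Ripk1, 4.66% for Adar, 7.21% for Mlkl, 7.68% for Ripk3, 8.22% for Casp8, 10.7% for Cflar and 28.0% for Zbp1. In Casp8-/- Tnfr1-/- livers it was 52.6% for Ripk3 and 57.7% for Fadd, both through replicate 3, and 13.7% for Zbp1.

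Granulocyte markers summed highest in Casp8-/- Tnfr1-/- livers, the genotype in which Zbp1 and Mlkl were high. Macrophage markers summed lowest there, but did not all move the same way. The 10 granulocyte markers summed to 1154 to 1674 CPM in WT, 1382 to 1416 in Tnfr1-/-, 1342 to 3431 in Casp8-/- Mlkl-/- and 5338 to 14529 in Casp8-/- Tnfr1-/- livers, with none at 0 in every liver. In Casp8-/- Tnfr1-/- against WT, 4 of the 10 were higher in the test, beside 5.1% of all genes, S100a8 by 3.31 log2 units (adjusted p = 0.013), S100a9 by 3.53 (adjusted p = 0.0182) and Ltf by 3.27 (adjusted p = 0.026) among them. Without replicate 3, 8 were higher, beside 9.83% of all genes called either way, with S100a8 at 2.44, S100a9 at 2.60 and Ltf at 2.78. The 12 macrophage markers summed to 525 to 677 CPM in WT, 609 to 646 in Tnfr1-/-, 689 to 1671 in Casp8-/- Mlkl-/- and 312 to 514 in Casp8-/- Tnfr1-/- livers. Of these, Cd68 was higher by 0.90 (adjusted p = 0.0293), and Marco (-1.51, adjusted p = 0.0495) and Clec4f (-4.23, adjusted p = 0.0436) were lower; without replicate 3 none was called lower. Clec4f, which marks Kupffer cells, measured 10.5 to 13.7 CPM in WT, 11.4 to 13.9 in Tnfr1-/-, 0.203 to 5.47 in Casp8-/- Mlkl-/- and 0.114 to 1.16 in Casp8-/- Tnfr1-/- livers, so it was low in both Casp8-deleted genotypes. Its log2 difference, Casp8-/- Tnfr1-/- minus Casp8-/- Mlkl-/-, was -1.71 (adjusted p = 0.440). Their part in the levels of the 9 genes was not tested.

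Other cell types gave few calls. None of 9 erythroid, 8 hepatocyte, 10 striated muscle, 6 B-lineage and 1 tested T and NK markers was called in Casp8-/- Tnfr1-/- against WT. Of 8 endothelial markers 1 was called, beside 5.8% of all genes. This was Pecam1, at 1.30 (adjusted p = 0.0449), and at 0.74 without replicate 3 (adjusted p = 0.00891). The striated muscle markers had a median of 5.81 log2 units with all livers and 0.94 without replicate 3. Without that liver, 2 erythroid markers were called lower and 1 striated muscle marker higher, beside 9.83% of all genes called either way.

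**Figure D5:**
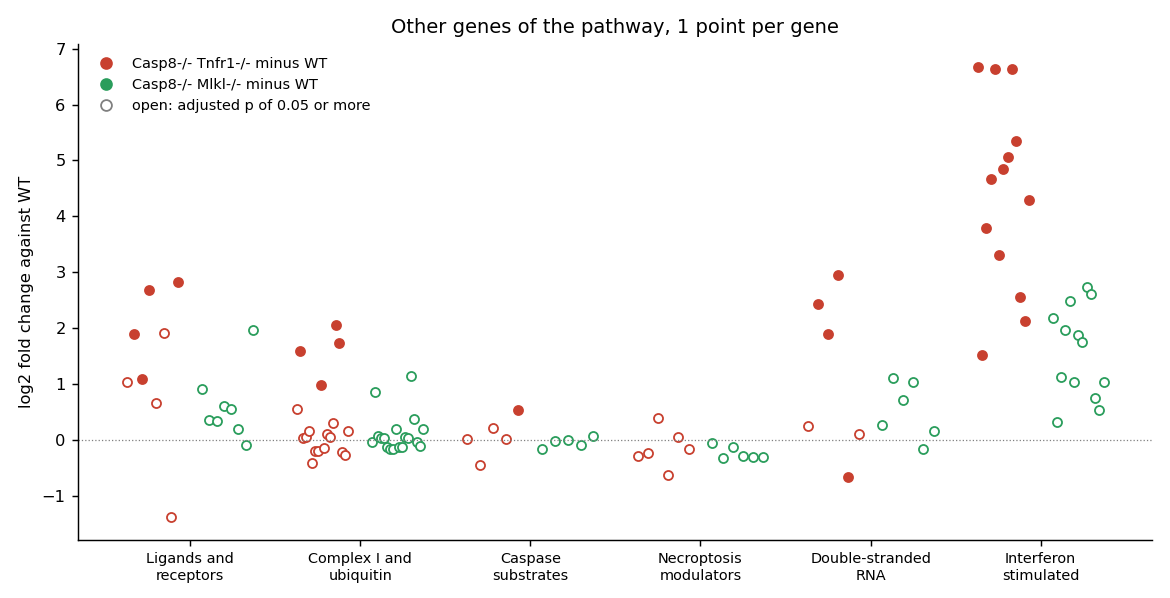
Log2 fold change against WT (y axis) of each tested gene in 6 lists of related genes; red is Casp8-/- Tnfr1-/- and green Casp8-/- Mlkl-/-, and filled points have an adjusted p under 0.05. All 13 interferon-stimulated genes are filled in red, and no green point is filled.

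Other genes of the pathway were counted in the same fit. Of 9 death ligands, receptors and Toll-like receptors, 8 were tested and 4 rose in Casp8-/- Tnfr1-/- against WT, beside 5.1% of all genes. The list median was 1.49, and 0.997 without replicate 3, when 4 were again higher, beside 9.83% of all genes called either way. Tnf, the TNFR1 ligand, was higher by 2.69 log2 units (adjusted p = 0.0203), Tnfsf10, the ligand TRAIL, by 2.83 (adjusted p = 0.0337), Tlr3, the double-stranded RNA receptor above TRIF, by 1.89 (adjusted p = 0.0018) and Tlr4, the endotoxin receptor, by 1.10 (adjusted p = 0.00839). Tnf measured 0.237 to 0.960 CPM in WT and 4.61, 3.99 and 2.17 CPM in Casp8-/- Tnfr1-/- livers. Tlr3 measured 2.53 to 3.91 CPM in WT and 13.2, 10.7 and 11.3 CPM in Casp8-/- Tnfr1-/- livers. The count was 2 against Tnfr1-/-, Tnf and Tlr3, beside 2.05% of all genes. It was 1 against Casp8-/- Mlkl-/-, Tlr3, beside 1.54% of all genes, and 0 in Casp8-/- Mlkl-/- against WT. Without replicate 3 it was 3 against Tnfr1-/- and 2 against Casp8-/- Mlkl-/-. The share over all genes in those fits is not given here, so the rise cannot be read.

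Of 18 genes of the TNFR1 signalling complex and its ubiquitin enzymes, 4 were higher in Casp8-/- Tnfr1-/- against WT, beside 5.1% of all genes, and the list median was 0.08. These were Tnfaip3, the ubiquitin-editing enzyme A20, at 2.05 (adjusted p = 0.0346), its partner Tnip1 at 1.74 (adjusted p = 0.0275), Birc3, the ligase cIAP2, at 1.59 (adjusted p = 0.0254) and Rnf31, the LUBAC catalytic subunit, at 0.99 (adjusted p = 0.0405). Replicate 3 was the highest liver for the first 3, and without it the values were 1.35 for Tnfaip3, 1.02 for Tnip1, 1.10 for Birc3 and 0.62 for Rnf31, all still called. None was called against Tnfr1-/- or Casp8-/- Mlkl-/- livers. Without replicate 3, 2 and 1 were, but the share over all genes in those fits is not given here. Of 5 caspase-8 and caspase substrates 1 was called, N4bp1, a suppressor of cytokine production that caspase-8 cleaves, at 0.55 (adjusted p = 0.0197), and Bid, which caspase-8 also cleaves, was added without replicate 3 (0.37, adjusted p = 0.0291). None of 6 modulators of necroptosis was called, with a median of -0.20.

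Of 6 genes of double-stranded RNA sensing, with a median of 1.07, 3 were higher in Casp8-/- Tnfr1-/- against WT. These were Ifih1 (MDA5) at 2.95 (adjusted p = 0.000102), Eif2ak2 (PKR) at 1.89 (adjusted p = 0.000797) and Ddx58 (RIG-I) at 2.43 (adjusted p = 0.000869). The same 3 were also higher than in Tnfr1-/- and in Casp8-/- Mlkl-/- livers. The adaptor gene Mavs was lower against WT at -0.67 (adjusted p = 0.00738). Of 13 interferon-stimulated genes, 13 were higher against WT, 12 against Tnfr1-/- and 11 against Casp8-/- Mlkl-/-. Over all genes, 5.1%, 2.05% and 1.54% were higher in these 3 comparisons. The lists were chosen with earlier results of these data known. The median of the interferon-stimulated genes against WT was 4.67 log2 units. Against WT, Casp8-/- Mlkl-/- livers had a median of 1.76 for this list, and none was called (0.33 to 2.74), beside a median of 0.03 over all genes. Zbp1, Adar and Mlkl were at 5.64, 1.83 and 2.02 log2 units against WT, where that list ran from 1.51 to 6.68. Genes outside the list, such as Tnfrsf1a (1.91, not called), lay in this wide range too. Lying inside it therefore does not set the 3 genes apart.

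The genes most like Zbp1 in pattern, by the root mean square difference of centred log2 CPM over 11 livers, were Gpnmb (0.423) and Acod1 (0.576), beside a spread of 2.32 for Zbp1 itself. Gpnmb measured 0.789 to 1.69 CPM in WT and 46.4 to 108 CPM in Casp8-/- Tnfr1-/- livers. Acod1, the itaconate-producing enzyme of activated myeloid cells, measured 0.0838 to 0.158 and 8.63 to 13.3 CPM in the same genotypes. Outside Casp8-/- Tnfr1-/- livers Acod1 was at most 0.378 CPM, so it passed the filter on low counts only through that genotype. Its likeness to Zbp1 rests on those livers. The genes most like Adar were Lin28a (0.103) and Eif2ak2 (0.153), beside a spread of 0.759 for Adar. Lin28a, an RNA-binding protein that blocks let-7 maturation, measured 4.40 to 4.97 CPM in WT, 6.86 to 7.58 in Casp8-/- Mlkl-/- and 17.2 to 17.7 in Casp8-/- Tnfr1-/- livers.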

How the data were processed

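Livers were grouped by the genotype label. Per the labels and the study's methods, reads were aligned to GRCm38 (mm10) with GSNAP, and the authors deposited, for each gene, a whole-number count of exonic reads and an RPKM value, with the exonic width. The labels and the methods name different library kits and sequencers, so strand use was not settled. CPM were computed from the deposited counts with edgeR's TMM factors (0.758 to 1.09), and CPM per kilobase used the deposited width. Deposited RPKM served as an alternative for the order of levels.

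Genes passing filterByExpr (minimum count 10; 17243 genes) were tested with edgeR's quasi-likelihood test (edgeR 4.0.16, R 4.3.3) over all 11 livers with genotype as the only term, and p-values were adjusted by Benjamini-Hochberg over all of them, with a threshold of 0.05. Alternatives used DESeq2 1.42.0, limma 3.58.1 (voom, with and without quality weights), other size factors and filters, only the genotypes compared, a replicate block, and each liver left out. Single genes had exact permutation tests on log2 CPM (prior count 2).

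The 9 genes and the lists were chosen with earlier results of these data known. Named genes were the 9, Tnfrsf1a, the 3 of each list with the smallest p in Casp8-/- Tnfr1-/- against WT, and the 2 most like each called untargeted gene; list genes named beyond that (Tnfsf10, Rnf31 and Mavs) were added after their values were seen. No label says that replicates are separate litters, so p-values measure the spread between these livers. Annotated overlaps came from GENCODE M21. Of each gene's 50-base stretches, up to 7.87% (14.4% for Adar, through Chrnb2) also occur in another gene, and 0 for Ripk3, Mlkl, Zbp1 and Ticam1. Protein motifs were not analysed here.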

Additional observations from a re-analysis of the deposited data

Results flagged for a closer look

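Of the 7 untargeted genes, 2 passed the test of a difference between 2 responses, as did 0.162% of all genes. The responses were that to Casp8 loss with Tnfr1 deleted and that to combined loss of Casp8 and Mlkl. The difference was 4.24 log2 units for Zbp1, which rose in 3 of 3 Casp8-/- Tnfr1-/- livers, and 1.20 for Adar, also in 3 of 3. Mlkl passed too, at 4.22, but the deletion of Mlkl in one arm is part of that value. The calls of Zbp1 and Adar were kept in 5 and 2 of 11 fits with 1 liver left out, and with the replicate number as a block the adjusted p was 0.0651 and 0.173.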

How the results depend on the processing

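Zbp1 passed the test in the 3 comparisons of Casp8-/- Tnfr1-/- livers in 20 of 20 other fits each. Adar did so in 20 against WT and in 19 of 20 in each of the other comparisons, the exception being the fit of only the genotypes compared (adjusted p = 0.05004 against Tnfr1-/- and 0.0981 against Casp8-/- Mlkl-/-), where the count of untargeted genes was 1 in each. With limma-voom and quality weights, the counts were 5 against WT, 5 against Tnfr1-/- and 2 in Casp8-/- Mlkl-/- against WT; DESeq2 gave 1 in the last. With 1 liver left out, the counts ran from 2 to 3 against WT, 2 to 2 against Tnfr1-/- and Casp8-/- Mlkl-/-, 0 to 1 in Casp8-/- Mlkl-/- against WT and 0 to 2 for the difference of differences. That last count was 1 without a filter on low counts and 0 by limma-voom. The cause was not tested.

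Replicate numbers did not pair the livers (same-numbered deviations correlated at -0.30 to 0.27). With the replicate block, the difference of differences had a count of 0, the adjusted p of Casp8 against WT was 0.0586, and no other call of the 9 genes was lost.

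Values that changed sign were uncalled. With quality weights Fadd was 0.049 in Casp8-/- Mlkl-/- against WT, and Cflar 0.16, Ripk1 0.055 and Ticam1 0.090 in Casp8-/- Tnfr1-/- against Casp8-/- Mlkl-/-. With 1 liver left out, in Casp8-/- Mlkl-/- against WT, Fadd ran from -0.19 to 0.12 and Ripk3 from -0.022 to 0.23. In Casp8-/- Tnfr1-/- against Casp8-/- Mlkl-/-, Cflar ran from -0.26 to 0.17, Ripk1 from -0.22 to 0.067 and Ticam1 from -0.14 to 0.16. Depth was lowest for Zbp1, which had 10 to 51 counts in 8 livers.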
